A study of Mus musculus with 4 samples.

Results

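Fos, Fosb, Jun, Junb, Jund, Egr1, Nr4a1, Ier2, Dusp1 and Zfp36 are immediate early genes, switched on within minutes of a stimulus without new protein being made first. These 10 of the 32285 genes in the deposited matrices were taken by symbol from a list of genes that also answer to cell preparation, and each symbol matched 1 gene. They were read in mononuclear cells from the blood of BL/6 and SM/J mice, both inbred strains, aged 12 or 20 months, profiled by single-cell RNA sequencing in droplets. There was 1 deposited matrix for each strain and age, called a library here and named BL/6 12 months, BL/6 20 months, SM/J 12 months or SM/J 20 months. Both ages of a strain shared 1 multiplexed run, so strain and run cannot be told apart. The labels name no treatment or engineered allele. Of the kept cells, 10761 could be given 1 of the 3 tag oligos of their library, and cells with the same tag are called an aliquot. No source used here says whether an aliquot is 1 animal, so aliquots give a spread within a library and no replicate test was possible.

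The members act at successive steps of one response. Growth factor, antigen receptor and stress signals run through MAP kinases to factors already bound at the promoters, and transcripts appear and decay quickly. Fos and Fosb proteins pair with Jun, Junb or Jund to form AP-1. Egr1 is a zinc finger transcription factor, and Nr4a1 (Nur77) is an orphan nuclear receptor that follows antigen receptor signals in lymphocytes and is needed for nonclassical monocytes. Ier2 is a short-lived nuclear protein. Dusp1 is a phosphatase that switches MAP kinases off, and Zfp36 (tristetraprolin) binds AU-rich transcripts and speeds their decay. Enzymes, spins and time on the bench also induce these genes in isolated blood cells.

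Filtering left 3400, 3101, 2405 and 2685 cells in the order of libraries above, and 11591 in all. These cells held 13682013 to 29495784 UMIs a library, where a UMI marks 1 captured transcript. The members took 3686, 4503, 3743 and 4434 CPM of them, where CPM is the count per 1000000 UMIs. Any 2 libraries shared 0 to 3 cell barcodes, and those of 1 strain shared 0. Clustering without the members and related genes gave 23 clusters, named from marker genes with the ending -like. Ratios were taken for the classes that reached 50 cells in all 4 libraries, namely B, T and NK cell-like cells and classical and nonclassical monocyte-like cells. B cell-like cells of SM/J at 20 months had a median of 9628 UMIs, against 3430 to 4196 in the other libraries, and the mitochondrial share of their UMIs had a median of 5.74% against 4.79% to 5.18%. Exons of Jun, Junb, Jund, Dusp1 and Zfp36 overlap a gene on the opposite strand in GENCODE M21, and the sources used here do not say whether counting used strand.

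The promoters of Fos, Nr4a1, Dusp1 and Zfp36 are shown because Fos and Zfp36 went with most members in the results that follow and Dusp1 and Nr4a1 did not. RefSeq promoters (GRCm38.p6, the assembly behind mm10) matched 8 of 10 members, all but Egr1 and Ier2. Each run is the 250 bases before the gene's start in RefSeq, 5′ to 3′ on the gene's strand. The GENCODE models of Nr4a1, Dusp1 and Zfp36 begin further upstream, so these 3 runs lie within those models. The Jund window, counted but not shown, ends at chr8:70697738, well before its GENCODE model begins at 70698949. Capitals mark TGACG on either strand, the core of the cyclic AMP response element, and in Zfp36 the CArG box, the binding motif of serum response factor. The Fos run is chr12:85473640-85473889 (plus strand), the Nr4a1 run chr15:101266596-101266845 (plus), the Dusp1 run chr17:26508473-26508722 (minus) and the Zfp36 run chr7:28379229-28379478 (minus).
Fos: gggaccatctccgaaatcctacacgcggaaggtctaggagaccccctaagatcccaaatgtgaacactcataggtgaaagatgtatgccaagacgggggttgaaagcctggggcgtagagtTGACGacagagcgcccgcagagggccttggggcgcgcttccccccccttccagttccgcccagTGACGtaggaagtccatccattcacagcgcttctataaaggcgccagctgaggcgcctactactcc
Nr4a1: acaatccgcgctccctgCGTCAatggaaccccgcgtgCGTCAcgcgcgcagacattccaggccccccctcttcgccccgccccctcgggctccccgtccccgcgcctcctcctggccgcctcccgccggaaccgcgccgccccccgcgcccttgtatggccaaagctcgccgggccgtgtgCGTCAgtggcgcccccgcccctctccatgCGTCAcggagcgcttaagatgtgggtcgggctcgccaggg
Dusp1: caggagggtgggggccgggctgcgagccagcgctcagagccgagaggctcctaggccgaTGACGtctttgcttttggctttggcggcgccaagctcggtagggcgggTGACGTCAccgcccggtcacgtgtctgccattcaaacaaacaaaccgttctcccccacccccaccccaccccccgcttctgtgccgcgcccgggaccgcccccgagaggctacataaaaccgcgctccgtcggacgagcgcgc
Zfp36: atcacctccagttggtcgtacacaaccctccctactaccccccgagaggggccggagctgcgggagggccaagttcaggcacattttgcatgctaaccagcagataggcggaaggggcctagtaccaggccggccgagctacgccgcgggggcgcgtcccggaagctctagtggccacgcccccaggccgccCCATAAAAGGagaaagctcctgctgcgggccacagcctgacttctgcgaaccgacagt
TGACG occurred in 5 of the 8 member promoters (Fos, Fosb, Junb, Nr4a1 and Dusp1) and in 17.8% of all 32851 promoters of this length. Nr4a1 held it 4 times, with the nearest match starting 40 bases before the start. In Dusp1 a pair of overlapping matches made the full TGACGTCA, which 1.55% of all promoters held. The CArG box was in the Zfp36 run alone among the 8, starting 58 bases before the start, and in 1.47% of all promoters. The letters TATAAA, read on the gene's strand, were in the Fos run and in 7.59% of all. GGGCGG on either strand was in 6 of the 8 and in 32.7% of all, and TGACTCA, the AP-1 motif, in none of the 8 and in 4.46% of all. These matches describe letters in a window, say nothing of sequence outside it and show no binding.

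Each member had its own order of cell classes. Levels are CPM, the member's UMIs over all UMIs of the class in a library. Fos was highest among the 5 compared classes in classical monocyte-like cells, at 1109, 1314, 1256 and 1232 CPM, and lower in nonclassical monocyte-like cells in 4 of 4 libraries (475 to 678 CPM). B cell-like cells held 176 to 437 CPM of Fos, T cell-like cells 140 to 261 and NK cell-like cells 88.2 to 123. The ranges of B and T cell-like cells overlapped. Fosb was at 104 to 158 CPM in classical monocyte-like cells, 91.2 to 175 CPM in B cell-like cells, which were the higher of the pair in SM/J 20 months, and 11.7 to 43.8 CPM in NK cell-like cells.

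The Jun genes differed in where they were high. Among the 5 compared classes Jund was highest in B cell-like cells, at 1140, 1196, 1188 and 1059 CPM. It was lower in T cell-like cells in every library (751 to 915 CPM) and lower again in classical monocyte-like cells (454 to 509 CPM). Junb was lower in B than in T cell-like and classical monocyte-like cells, with 942 to 1187 CPM in classical monocyte-like cells, 788 to 942 CPM in T cell-like cells and 489 to 578 CPM in B cell-like cells. NK cell-like cells held 699 to 1276 CPM of it, above classical monocyte-like cells in BL/6 20 months. Jun did not set the classes apart: its ranges in B (293 to 576 CPM), T (274 to 402), NK (231 to 333), classical (287 to 375) and nonclassical (268 to 369) monocyte-like cells all overlapped.

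Nr4a1 marked nonclassical monocyte-like cells, with 961, 776, 893 and 906 CPM. Classical monocyte-like cells held 199 to 292 CPM, so the log2 ratio of nonclassical over classical was 1.61 to 1.96 in the 4 libraries. Lymphocytes were lower still: 29.3 to 100 CPM in B cell-like and 8.62 to 31.3 CPM in T cell-like cells, with 47.0 to 162 CPM in NK cell-like cells. After thinning each cell to 1000 UMIs, 47.0% to 59.5% of nonclassical monocyte-like cells had an Nr4a1 UMI, against 0.858% to 3.10% of T cell-like cells at the same depth.

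The inhibitors were myeloid transcripts. Dusp1 reached 1570 to 1826 CPM in macrophage-like cells (30, 38, 35 and 397 cells), 1088 to 1451 CPM in nonclassical and 633 to 1169 CPM in classical monocyte-like cells. B, T and NK cell-like cells held 77.9 to 239 CPM. Zfp36 was at 895 to 996 CPM in nonclassical monocyte-like cells and 81.7 to 331 CPM in the 3 lymphocyte classes. Ier2 was higher in NK cell-like (299 to 441 CPM) than in T cell-like cells (147 to 208 CPM) in 4 of 4 libraries.

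Egr1 varied widely between classes. Nonclassical monocyte-like cells held 9.74 to 29.2 CPM, T cell-like cells 15.6 to 19.9 CPM and macrophage-like cells 58.8 to 162 CPM. B cell-like cells held 35.1 to 59.2 CPM in 3 libraries and 328 CPM in SM/J 20 months.

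**Figure D1:**
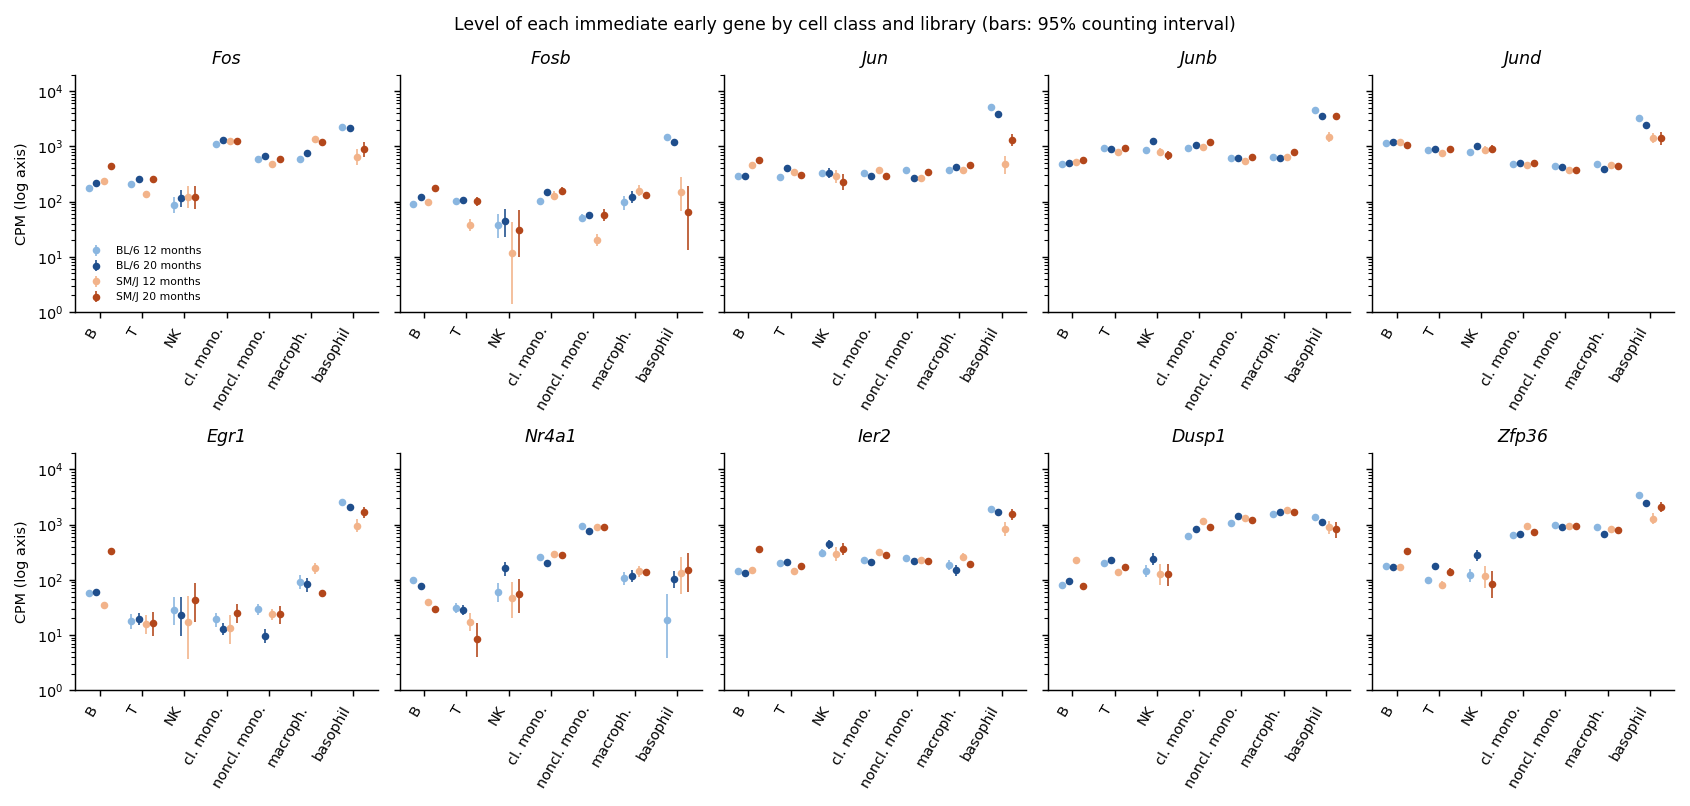
Level of each member (CPM, log axis) in 7 cell classes; colours are the 4 libraries and bars are 95% counting intervals. Basophil-like cells of BL/6 stand highest for 8 of the 10 members, Nr4a1 peaks in nonclassical monocyte-like cells, and Egr1 in B cell-like cells is high in SM/J 20 months alone.

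Basophil-like cells of BL/6, few in number, held more of most members than the other classes of at least 30 cells. The 10 members summed to 26182 and 20634 CPM in the 39 and 56 basophil-like cells of BL/6 at 12 and 20 months, against 5408 and 5385 CPM in the next class of at least 30 cells. Beyond the counting interval, 8 of the 10 members exceeded every such class in both BL/6 libraries. The share of all genes doing so was not computed, so this count does not set the members apart from other genes. Egr1 differed most, at 2601 and 2060 CPM against 92.7 and 82.7 CPM in macrophage-like cells. Dusp1, at 1363 and 1139 CPM, was not above macrophage-like cells, and Nr4a1 was at 18.8 CPM (3 UMIs) and 104 CPM (31 UMIs). The 15 and 11 basophil-like cells of SM/J summed to 8318 and 13442 CPM. In them 4 and 6 members exceeded every other class of at least 30 cells beyond the counting interval, again with no all-gene share. The smaller neutrophil-like class of SM/J 20 months (11 cells) summed to 13228 CPM, close to its basophil-like cells. Heat shock chaperones, another stress list, were at 1363 and 1789 CPM in basophil-like cells of BL/6 and the median mitochondrial share was 1.96% and 1.85%. Erythroid markers summed to 13460 CPM in these cells of BL/6 12 months and 97.1 CPM in BL/6 20 months; their part in the levels was not tested.

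The number of members detected in a cell differed between classes. At 1000 UMIs a cell, B cell-like cells had a median of 2 members in each library and nonclassical monocyte-like cells a median of 3. Cells with at least 5 members made up 100% of the basophil-like cells of BL/6 12 months and 96.4% of those of BL/6 20 months. They made up 3.84%, 4.11%, 4.94% and 12.3% of B cell-like cells in library order. Were members drawn independently at their own shares, 1.58%, 1.73%, 2.97% and 6.75% would be reached. Other classes did not all exceed that product: basophil-like cells of BL/6 20 months had 96.4% against 99.3%, T cell-like cells of SM/J 12 months 1.11% against 1.19%, and NK cell-like cells of BL/6 20 months 4.55% against 6.05%. Free RNA from lysed cells can also add UMIs to any droplet. Egr1 was seen in 2.6% of T cell-like cells of SM/J 20 months, against 17.2% of B cell-like cells of that library at the same depth. Without thinning these shares were 6.01% and 43.2%, from cells with median depths of 4012 and 9628 UMIs.

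For the BL/6 ages, 20 over 12 months, 50 member-by-class values had at least 20 UMIs, and 2 were at least 2-fold higher and 1 at least 2-fold lower. Across all genes with at least 20 UMIs and a mean of 20 CPM in the same 5 classes, 1.07% of values were at least 2-fold higher and 1.57% lower. With the members' rule of 20 UMIs alone, which lets in low genes, these were 1.91% and 2.35%. Counts of 2 and 1 in 50 are too few to set the members apart from these shares. The aliquots of the ages lay apart for 14 values higher and 8 lower at 20 months, where they did for 14.2% and 13.1% of values over all genes. B cell-like cells had no member past 2-fold, where 0.339% of genes were higher and 0.196% lower. Their 10 members summed to 2750 and 2871 CPM, a log2 ratio of 0.06 with a 95% counting interval of 0.03 to 0.09. With TMM scaling, which offsets abundant genes, the ratio was −0.011. Egr1 was at 58.7 and 59.2 CPM in them.

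The higher values were both in NK cell-like cells, of which there were 89 and 67, and where 3.12% of genes were higher and 3.6% lower. The 10 members summed to 2761 and 3933 CPM in these cells, a log2 ratio of 0.51, or 0.44 with TMM scaling. Nr4a1 was at 59.6 and 162 CPM (27 and 48 UMIs; log2 1.43, interval 0.73 to 2.18), and Zfp36 at 121 and 279 CPM (1.20, 0.70 to 1.72). The aliquots overlapped for both, with Zfp36 between 76.0 and 252 CPM in the 3 at 12 months and at 247 and 259 CPM in the 2 at 20 months. Leaving out aliquot 1 or 2 of the 12-month library brought Zfp36 to 0.94 and 0.99. Egr1 in nonclassical monocyte-like cells was lower, at 29.2 and 9.74 CPM (72 and 47 UMIs; log2 −1.49, −2.15 to −1.03), and lay within 2-fold with a pseudocount of 10 CPM or at a finer clustering (−0.99 in both).

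Most members past 2-fold between the SM/J ages were in B cell-like cells. Of 47 values with at least 20 UMIs, 4 were at least 2-fold higher and 1 at least 2-fold lower, where 2.28% and 2.18% of values over all genes were (3.82% and 3.63% with no CPM minimum). Of these 5, 3 were in B cell-like cells, where 3.87% of genes were higher and 4.32% lower. In that class the 3 aliquots at 20 months lay apart from the 3 at 12 months for all 10 members, 7 higher and 3 lower. Most genes of the class did the same, 30.1% of them higher and 38.5% lower, so the count says little about the members.

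Egr1 showed the largest ratio among the members. It was at 35.1 CPM in SM/J 12 months (aliquots 27.8 to 44.5) and 328 CPM in SM/J 20 months (297 to 367), a log2 ratio of 3.19 with an interval of 3.04 to 3.42. Every 20-month aliquot was above every aliquot of the other 3 libraries. Ier2 was at 153 CPM (146 to 158) and 355 CPM (346 to 364), a log2 ratio of 1.21 (1.12 to 1.32). Smaller differences in the same direction were found for Zfp36 (172 and 331 CPM; log2 0.94), Fos (241 and 437 CPM; 0.86) and Fosb (97.2 and 175 CPM; 0.85). Jun (454 and 576 CPM; 0.34) and Junb (511 and 578 CPM; 0.18) differed least among the 7.

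The phosphatase ran against them. Dusp1 in B cell-like cells was at 227 CPM in SM/J 12 months (aliquots 214 to 231) and 77.9 CPM in SM/J 20 months (72.1 to 82.8), a log2 ratio of −1.53 (−1.65 to −1.44). BL/6 held 79.3 CPM at 12 months (72.7 to 83.3) and 96.3 CPM at 20 months (84.9 to 115), so SM/J 12 months stood alone. In that library the 8 neutrophil markers summed to 337 CPM in B cell-like cells, against 1.80 to 3.42 CPM in the other libraries, with 3 of the 8 (Ly6g, Retnlg and Mmp9) at 0. The 8 macrophage markers summed to 127 CPM, against 42.6 to 72.5 CPM. Their part in the Dusp1 level was not tested. Nr4a1 was lower by a smaller margin (40.4 and 29.3 CPM; log2 −0.45), as was Jund (1188 and 1059 CPM; −0.17). TMM scaling, which offsets abundant genes, raised every ratio of this comparison by 0.16; Jund was then at −0.0022 and Fos and Fosb at 1.02 and 1.01, Zfp36 also past 2-fold, while Dusp1 stayed at −1.37.

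**Figure D2:**
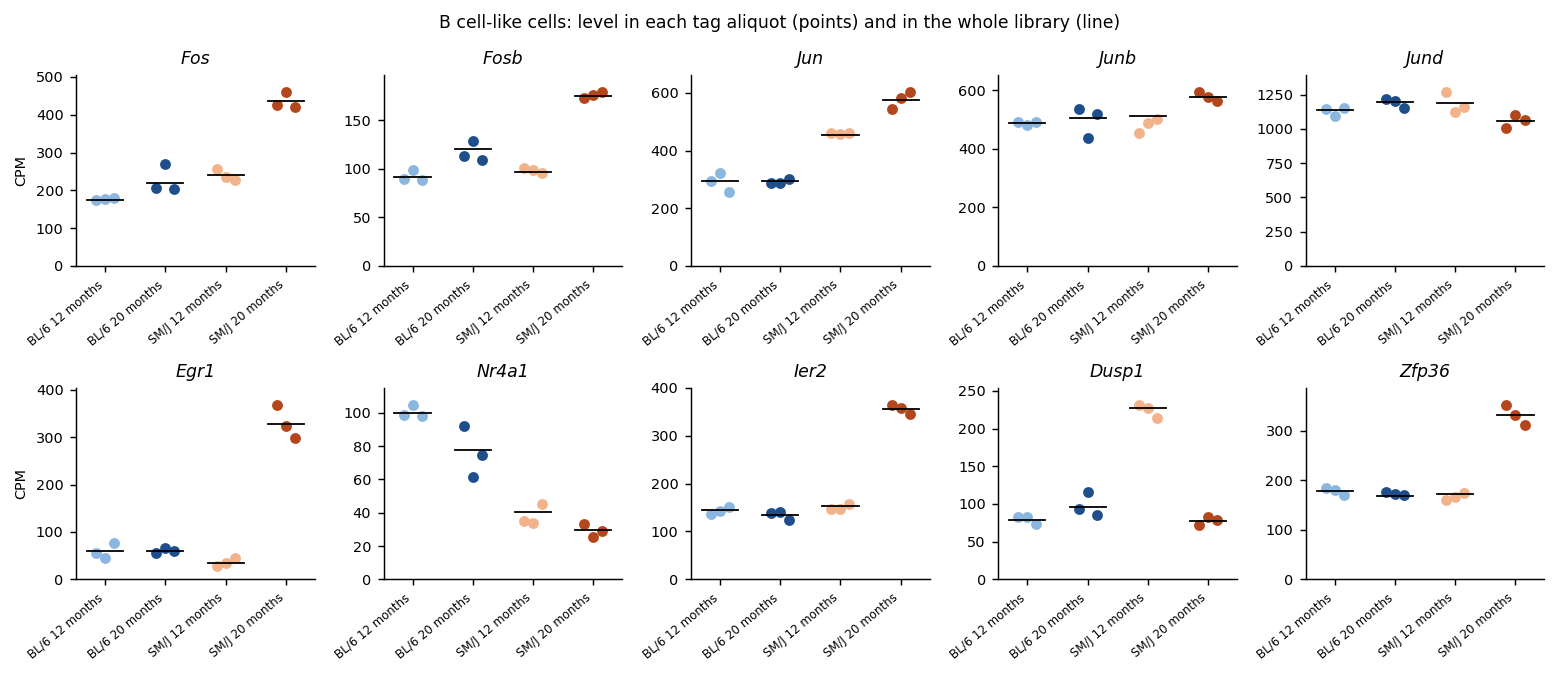
Level of each member (CPM, axis from 0) in B cell-like cells; points are the 3 tag aliquots of a library and lines the whole library. Egr1, Ier2 and Zfp36 are high in all 3 aliquots of SM/J 20 months, and Dusp1 in all 3 of SM/J 12 months.

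B cell-like cells of SM/J belonged to different clusters at the 2 ages. Clusters 1 and 12 held 42.4% and 46.6% of them at 12 months, and 12.2% and 28.4% at 20 months. Cluster 22 held 844 cells, 52.5% of the class, in SM/J 20 months and 16 cells in SM/J 12 months. Within clusters present at both ages Egr1 was still higher, at 35.3 and 111 CPM in cluster 1 and at 17.3 and 93.1 CPM in cluster 12, and it was at 429 CPM in cluster 22. Ier2 differed less there (190 and 211 CPM in cluster 1, 128 and 162 CPM in cluster 12) and was at 442 CPM in cluster 22. Dusp1 was at 168 and 184 CPM in cluster 1, 273 and 187 CPM in cluster 12, and 47.6 CPM in cluster 22.

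Some ratios depended on those clusters. Counting shared clusters equally gave log2 ratios of 0.23 for Ier2 and −0.25 for Dusp1 between the SM/J ages. Leaving out clusters 17 and 22, with over 90% of their cells in 1 library, gave 0.28 and −0.32. Egr1 stayed past 2-fold under both, at 1.92 and 1.91. With cells thinned to 1000 UMIs Ier2 was at 0.94 and Dusp1 at −0.96, and Ier2 was at 0.98 in cells of at most 5% mitochondrial UMIs. Heat shock chaperones were at 2635 and 3004 CPM in the B class of SM/J against 1383 and 1342 CPM in BL/6, and marker sums of the T, NK and monocyte lists were at 54.1 CPM or less in B cell-like cells of every library. Plasma cell markers summed to 446, 431, 997 and 1545 CPM in the class in library order, and B cell markers to 10226, 10866, 8154 and 6881 CPM. The part of depth, heat shock transcripts, plasma cell markers and cell preparation in these ratios was not tested.

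**Figure D3:**
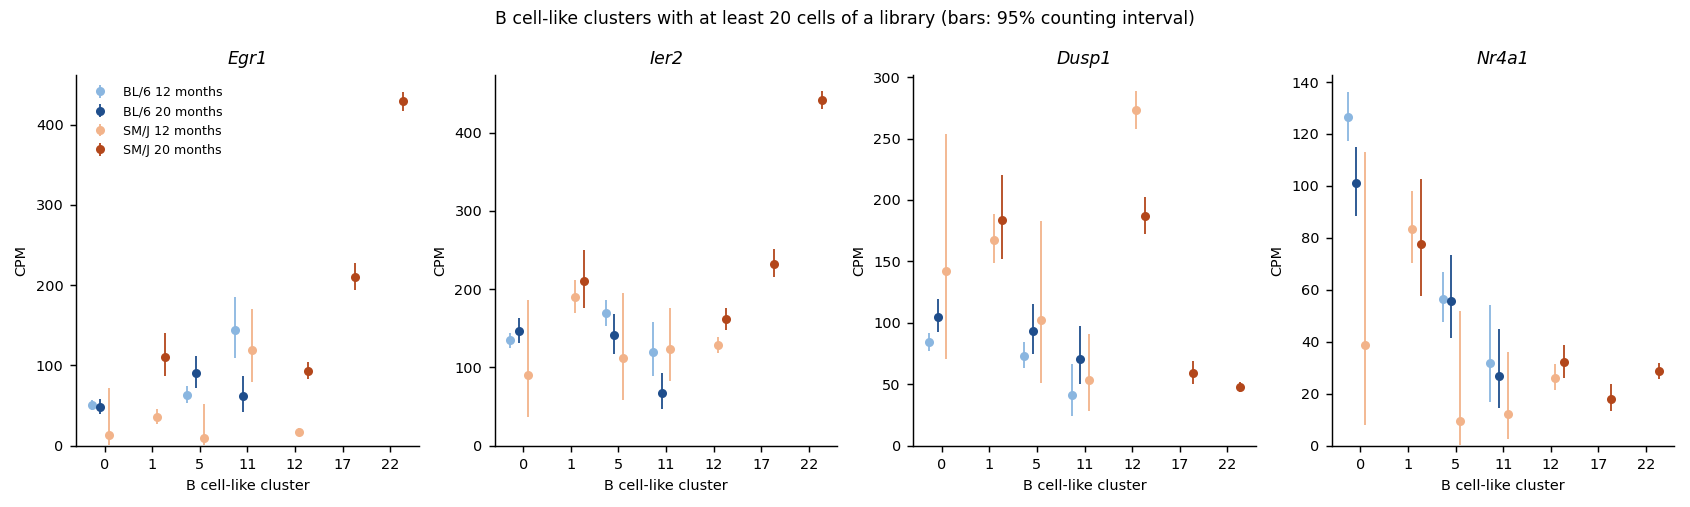
Egr1, Ier2, Dusp1 and Nr4a1 (CPM, axis from 0) in each B cell-like cluster with at least 20 cells of a library; colours are libraries and bars 95% counting intervals. Egr1 is higher at 20 than at 12 months within clusters 1 and 12 of SM/J, and cluster 22 holds the highest Egr1 (429 CPM) and Ier2 (442 CPM), with Dusp1 at 47.6 CPM.

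Outside B cell-like cells Fosb was the member past 2-fold between the SM/J ages. It was at 38.3 and 101 CPM in T cell-like cells (aliquots 33.9 to 68.1 and 71.2 to 137; log2 1.37, 0.94 to 1.86). In nonclassical monocyte-like cells it was at 20.2 and 57.2 CPM (11.8 to 26.8 and 39.8 to 80.4; 1.46, 0.99 to 2.02). BL/6 held 103 and 105 CPM in T cell-like cells, so SM/J 12 months was the low library. At a coarser clustering, where the T cell-like class held 903 cells in place of 1574 and 691 cells were unnamed, that T cell-like ratio was −0.024, and with clusters weighted equally it was 1.47. Nr4a1 in T cell-like cells was within 2-fold (17.4 and 8.62 CPM, on 30 and 9 UMIs; −0.94) but at −1.05 with TMM scaling and −1.19 with equal cluster weights. Fos there was at 140 and 261 CPM (0.90), and past 2-fold with equal cluster weights. No member passed 2-fold between the SM/J ages in classical monocyte-like cells.

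**Figure D4:**
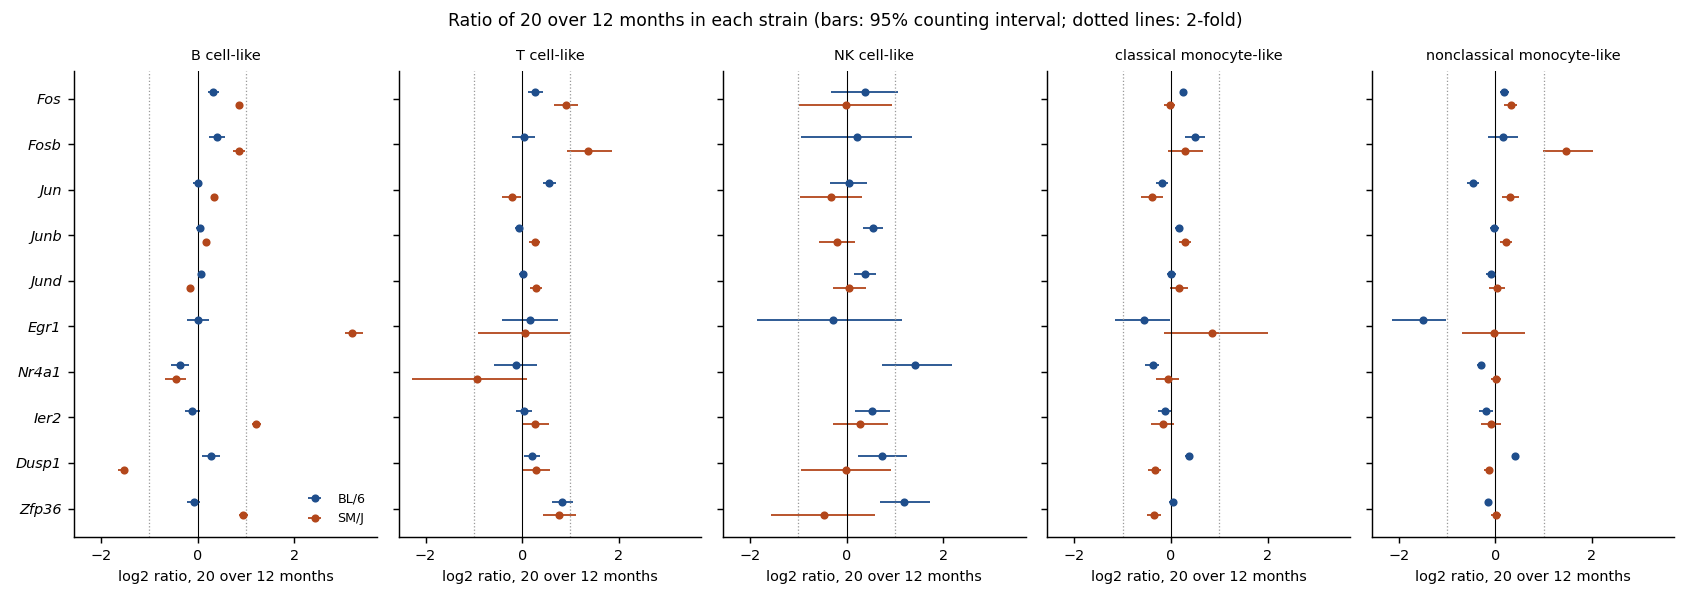
Log2 ratio of 20 over 12 months for each member in 5 classes, BL/6 in blue and SM/J in orange, with 95% counting intervals; dotted lines mark 2-fold and values under 20 UMIs are left out. In B cell-like cells the SM/J ratios spread from −1.53 (Dusp1) to 3.19 (Egr1), while the BL/6 ratios stay within 2-fold.

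SM/J and BL/6 were compared at each age, with run and strain inseparable. At 12 months, 48 values had at least 20 UMIs, with 1 at least 2-fold higher in SM/J and 3 lower, against 3.35% and 3.95% over all genes (5.07% and 5.55% with no CPM minimum). Dusp1 in B cell-like cells was the higher one (log2 1.51, 1.39 to 1.65). The lower ones were Fosb in T cell-like (−1.41) and nonclassical monocyte-like cells (−1.29) and Nr4a1 in B cell-like cells, at 100 CPM in BL/6 and 40.4 CPM in SM/J (−1.29, −1.51 to −1.11). With cells limited to 5% mitochondrial UMIs, Nr4a1 was at −0.43. Fosb in nonclassical monocyte-like cells was at −0.21 at a coarser clustering and at −0.997 in thinned cells. Counting the shared clusters 0, 5 and 11 equally brought Dusp1 to 0.58 and Nr4a1 to −1.78 in B cell-like cells. Those clusters held only 1.87%, 2.03% and 5.77% of the class in SM/J 12 months. Clusters 0 and 5 held most B cell-like cells of BL/6 and clusters 1 and 12 those of SM/J, so these values also compare clusters. The same holds for nonclassical monocyte-like cells, since cluster 4 made up 99.2% of the BL/6 ones and cluster 20 made up 98.8% of the SM/J ones. Of T cell-like cells, 39.7% (BL/6) and 8.61% (SM/J) belonged to cluster 10, and NK markers in the class summed to 1257 and 254 CPM.

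At 20 months, 48 values again had at least 20 UMIs, with 3 at least 2-fold higher in SM/J and 4 lower, where 4.25% and 5.52% of values over all genes were. With no CPM minimum, which the low Egr1 and T cell-like Nr4a1 values here need, the shares were 6.74% and 7.68%. In B cell-like cells alone 8.68% of genes were higher and 16% lower. With TMM scaling 6 values were higher, the added ones being Fos (1.27), Jun (1.25) and Zfp36 (1.25) in B cell-like cells, and leaving out 1 aliquot gave 3 to 6. Higher were Egr1 (59.2 and 328 CPM; log2 2.45, 2.28 to 2.67) and Ier2 (133 and 355 CPM; 1.41) in B cell-like cells, and Egr1 in nonclassical monocyte-like cells (9.74 and 23.7 CPM; 1.20), the last on 47 and 29 UMIs and at 0.72 to 0.97 under 6 other settings. The nonclassical classes were again different clusters, with 99.4% of BL/6 cells from cluster 4 and 98.2% of SM/J cells from cluster 20. Without clusters 17 and 22, Egr1 was at 0.73, Ier2 at 0.37 and Nr4a1 at −0.97 in B cell-like cells. Nr4a1 was lower in B cell-like (77.9 and 29.3 CPM; −1.38), T cell-like (28.4 and 8.62 CPM; −1.61) and NK cell-like cells (162 and 54.7 CPM; −1.55), the latter pair on 9 UMIs each in SM/J. Without aliquot 3 of SM/J 20 months, Nr4a1 in NK cell-like cells was at −0.90. Zfp36 was also lower in NK cell-like cells (279 and 85.1 CPM; −1.70). Summed macrophage markers in that class were at 16.8 CPM in BL/6 and 188 CPM in SM/J, and classical monocyte markers at 737 and 1051 CPM; their part in the NK cell-like values was not tested. In B cell-like cells the aliquots of the strains lay apart for all 10 members, 7 higher and 3 lower in SM/J, as they did for 31.5% of all genes higher and 48.4% lower; with TMM scaling, which added 0.28, Jund turned from −0.18 to 0.11. Outside the pair of B cell-like comparisons given here, with SM/J at 20 months, TMM moved the ratios by between −0.14 and 0.13.

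Genes related to the members were read from 4 lists. Between the SM/J ages, B cell-like cells had, among other immediate early transcription factors, 5 of 21 at least 2-fold higher and 3 lower, with a median log2 ratio of 0.48. Over all 12707 genes with at least 20 UMIs in this comparison, the rule the lists used, 6.42% were higher and 5.47% lower, with a median of −0.06. Relatives of Egr1 led them, with Egr2 at 2.23 and 13.4 CPM (log2 2.16) and Egr3 at 8.62 and 34.3 CPM (1.87). Nr4a2, a relative of Nr4a1, was at 7.43 and 2.36 CPM (−1.33). Feedback phosphatases, RNA decay factors and other early inhibitors had 5 of 26 higher and 6 lower, with a median of −0.40. Zfp36l2, a relative of Zfp36 in RNA decay, was at 315 and 78.8 CPM (−1.98) and Cxcr4, a chemokine receptor, at 48.6 and 13.8 CPM (−1.75). Socs3, an inhibitor of cytokine signals, was at 8.18 and 29.1 CPM (1.71). None of 18 kinases and factors upstream passed 2-fold, and 1 of 9 heat shock chaperones did (Hspb1, 18.4 and 97.1 CPM; 2.34).

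Between the BL/6 ages the same lists had, in the B class, 1 gene past 2-fold upward, Zfp36l2 (148 and 329 CPM; log2 1.15), and 1 downward, Hspb1, at 4.75 CPM and with 0 UMIs at 20 months, which allows up to 0.789 CPM. Over all genes of that class and contrast, 1.05% were higher and 1.14% lower with no CPM minimum. The medians there were −0.13 for other transcription factors and 0.20 for inhibitors, against 0.05 over all 11242 genes with at least 20 UMIs. In classical monocyte-like cells Ier3, an early response gene, was higher at 20 months in both strains, at 10.5 and 53.7 CPM in BL/6 (2.26) and 4.50 and 33.7 CPM in SM/J (2.66). In the SM/J cells of that class 2 of 15 other transcription factors were past 2-fold upward and 0 downward, Nr4a2 (65.2 and 160 CPM; 1.28) and Nr4a3 (14.6 and 37.5 CPM; 1.30). Of 25 inhibitors 3 were higher, Socs3 among them (24.7 and 69.3 CPM; 1.45), and 3 lower, with Nfkbid (40.5 and 15.4 CPM; −1.34) and Dusp2 (91.0 and 40.4 CPM; −1.15). Of 9 chaperones Hspa1b alone was past 2-fold, from 23.6 to 1.92 CPM (−3.07, −6.75 to −1.58), and of 17 upstream kinases and factors none was. The all-gene shares there were 3.59% higher and 3.19% lower with no CPM minimum, and 2.23% and 2.33% between the BL/6 ages. In these SM/J cells macrophage markers summed to 163 and 760 CPM at 12 and 20 months and nonclassical monocyte markers to 1081 and 558 CPM, and cluster 3 gave 5.98% and 21.2% of the class; their part in these genes was not tested.

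Members differed in how closely they followed each other. Pearson's r of each member with the sum of the other 9, over 20 class-by-library values centred by class, was 0.89 for Zfp36, 0.76 for Ier2, 0.69 for Junb, 0.60 for Fosb, 0.57 for Fos and 0.46 for Jun. It was 0.32 for Dusp1, 0.25 for Egr1, 0.23 for Jund and 0.07 for Nr4a1. Among 3333 genes with a mean of at least 50 CPM, those most like the summed members were Fut8 (r = 0.87), Klf10 (0.84), Lamp1 (0.82), Ppp2r5a (0.78), Ptpre (0.77), Ehbp1l1 (0.76), Arf4 (0.76), Cd44 (0.75), Map3k5 (0.75) and Atf3 (0.74). The 20 values share 4 libraries, so these r describe the pattern alone.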

How the data were processed

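The deposited matrices hold UMI counts per gene and cell, made with Cell Ranger 7.0.1 per the file headers; mm10 and Seurat 4.3.0 are named in the submitters' processing notes. Counts of tag oligos gave each cell's aliquot, where 1 tag held over 0.5 of its tag counts. Cells with at least 500 UMIs, 200 genes and at most 10% mitochondrial UMIs were kept, and 130 doublets called by Scrublet (rate 0.06) were removed. Clustering (scanpy 1.11.5) used 2000 variable genes without the members and related lists, 30 components, 15 neighbours and resolution 1. UMIs were summed per class and library, and log2 ratios of CPM + 1 carry a 95% conditional binomial interval. Levels carry exact Poisson and shares Clopper-Pearson intervals, and all intervals cover counting error only. A value counts as past 2-fold with at least 20 UMIs over both libraries. With 1 library per group no test across libraries was made. TMM scaling used edgeR 4.0.16. Named genes are the members, up to 4 genes past 2-fold per related list and class, and the 10 genes most like the summed members. Members and lists were chosen with earlier results of these data known. Some smaller classes fall below 50 cells and enter no comparison. Alternatives changed scaling, pseudocount, filters, clustering, thinning, doublets and the aliquots used.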

Additional observations from a re-analysis of the deposited data

Results flagged for a closer look

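Dusp1, the MAP kinase phosphatase, differed with age in opposite directions in the strains in B cell-like and classical monocyte-like cells, with the aliquots of the ages lying apart in each. That pattern was the rule by which results were flagged. Over all genes of the B class, aliquots lay apart for 16.5% higher in BL/6 and 38.5% lower in SM/J. For classical monocyte-like cells these shares were 14% and 9.82%. In B cell-like cells the log2 ratio of Dusp1, 20 over 12 months, was 0.28 in BL/6 and −1.53 in SM/J. The latter was −0.25 with clusters weighted equally and −0.32 without clusters of 1 library. In T cell-like cells the Dusp1 ratio was above 0 in both strains, at 0.19 and 0.29. The NK class had 0.73 in BL/6 and −0.017 in SM/J, and the nonclassical monocytes 0.41 and −0.14. For the classical monocytes it was 0.38 in BL/6 and −0.34 in SM/J. Between the SM/J ages the share of that class from cluster 3 was 5.98% and 21.2%, macrophage markers summed to 163 and 760 CPM, classical monocyte markers to 6473 and 9436 CPM and nonclassical ones to 1081 and 558 CPM; their part in the ratio was not tested. The 10 members summed also went opposite ways in classical monocyte-like cells, at 0.13 in BL/6 and −0.075 in SM/J. The difference between the strains was not tested in any of these, since each strain and age is 1 library.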

How the results depend on the processing

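No paired analysis was possible because each strain and age is 1 library and no test was made. Of single-member ratios under other settings, 3259 stayed within the spread, 309 moved further and, of those past 2-fold, 1 reversed: Fosb in T cells between the SM/J ages, at −0.024 at clustering resolution 0.5, where that class had 903 cells in place of 1574. Settings weighed unequally in this total. With summed ratios included, leaving out 1 aliquot gave 1238 within the spread and 32 moved, and no filter on low values 213 within. Thinning gave 119 within and 69 moved, TMM 159 and 54, and equal cluster weights 129 and 39. The sign also differed in 283 recomputed values of ratios within 2-fold, among them, with equal cluster weights, Nr4a1 in classical monocytes (strain, 20 months; −0.97), Jun in B cells (SM/J age; −0.16) and Ier2 in B cells (strain, 12 months; −0.38). The cause was not tested. Of the 19 values past 2-fold, TMM kept 19, resolution 0.5 kept 16 and leaving out clusters of 1 library 14; thinning kept 12 of the 15 it could give. Counts below are values past 2-fold and other values are log2 ratios of the summed members; the class names omit -like, and an age contrast is 20 over 12 months. TMM scaling gave 6 higher for strain at 20 months, and 7 higher and 2 lower for SM/J age. Its B cell ratios were −0.011 (BL/6 age), 0.50 (SM/J age), 0.23 (strain, 12 months) and 0.74 (strain, 20 months). For T cells these were 0.23, 0.18, −0.13 and −0.18. For classical monocytes TMM gave 0.16 (BL/6 age), 0.21 (strain, 12 months) and −0.037 (strain, 20 months, 0.11 at the main settings). For nonclassical ones it gave −0.22 and −0.13 for strain at 12 and 20 months. Thinned cells gave 1 higher for BL/6 age, 0 lower for SM/J age and 2 lower for strain at 20 months. Thinning put B cells at 0.26 (SM/J age) and 0.43 (strain, 20 months), T cells at 0.20 (BL/6 age), classical monocytes at −0.17 (SM/J age), 0.38 (strain, 12 months) and 0.066 (strain, 20 months), and nonclassical ones at −0.14 (strain, 12 months). Equal cluster weights gave 0 and 1 higher for strain at 12 and 20 months, the latter Egr1 in classical monocytes (2.48, against 0.91 at the main settings). The classical monocyte values for strain at 20 months rest on cluster 3 alone, with 25 SM/J cells, 21.2% of the class. Equal weights could not be given for monocytes at 12 months or for B cells and nonclassical monocytes at 20 months, where the strains shared no cluster with enough cells. They put B cells at 0.096 (BL/6 age) and 0.044 (SM/J age), T cells at 0.40 (SM/J age) and −0.41 (strain, 12 months), and classical monocytes at 0.051 (strain, 20 months). Without clusters of 1 library there were 1 higher for strain at 20 months and 0 lower for SM/J age, and B cells were at 0.097 (SM/J age) and 0.21 (strain, 20 months). Keeping doublets gave 2 and 5 higher for strain at 12 and 20 months and 2 lower for SM/J age. Clustering with the members put NK cells at 0.64 and classical monocytes at 0.088, both for BL/6 age. A minimum of 1000 UMIs gave 0.63 and 0.086 for the same, and classical monocytes 0.26 (strain, 12 months). A mitochondrial limit of 20% gave −0.034 in nonclassical monocytes (strain, 12 months). A limit of 5% gave 3 lower for SM/J age, T cells at 0.21 (SM/J age) and −0.14 (strain, 12 months), classical monocytes at 0.080 (BL/6 age) and 0.23 (strain, 12 months), and nonclassical ones at −0.026 (strain, 12 months). A pseudocount of 10 and resolution 2 each gave 0 lower for BL/6 age. Resolution 0.5 gave 2 lower for SM/J age. It put T cells at −0.056 (BL/6 age, 0.12 at the main settings), 0.088 (SM/J age) and −0.15 (strain, 20 months). Classical monocytes were then at 0.022 (strain, 20 months). Nonclassical ones were at −0.029 and 0.025 for strain at 12 and 20 months, the latter −0.019 at the main settings. Leaving out 1 aliquot gave 1 to 2 higher for BL/6 age, 1 to 2 lower for SM/J age, and 1 to 2 and 3 to 6 higher for strain at 12 and 20 months. It put classical monocytes at 0.084 to 0.15 (strain, 20 months), and nonclassical ones at −0.068 to 0.11 (SM/J age), −0.098 to −0.047 (strain, 12 months) and −0.14 to 0.040 (strain, 20 months).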

Other observations

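Plasma cell-like cells, too few for a comparison, also held more of several members in SM/J at 20 months (27 cells) than in BL/6 at 20 months (47 cells). Fos was at 1215 and 145 CPM, Egr1 at 299 and 6.97 CPM, Jun at 864 and 115 CPM and Ier2 at 523 and 52.2 CPM in that order. Jund (1260 and 1120 CPM) and Nr4a1 (20.8 and 19.2 CPM) were close. The make-up of these plasma cell-like cells also differed. In the same order, plasma cell markers summed to 16944 and 23925 CPM and B cell markers to 3134 and 1822 CPM. Plasmacytoid dendritic cell markers summed to 3730 and 939 CPM, and heat shock chaperones to 1965 and 991 CPM. Their part in the member levels was not tested. Neutrophil-like cells (4, 11 and 11 cells in BL/6 12 months, BL/6 20 months and SM/J 20 months) held 8430, 13238 and 13228 CPM of the summed members. Platelet-like cells held the least, at 175 to 996 CPM in the 4 libraries.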
